A study of Mus musculus with 6 samples.

Results

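The miR-30 family was followed through small RNA libraries of mouse spinal cord, as the 8 rows of the deposited miRNA table named mmu-miR-30a-5p, mmu-miR-30b-5p, mmu-miR-30c-5p, mmu-miR-30d-5p and mmu-miR-30e-5p (the 5p arms) and mmu-miR-30a-3p, mmu-miR-30d-3p and mmu-miR-30e-3p (the 3p arms). They were chosen by name, 8 of 1482 rows, and all 8 passed the filter on low counts, as 614 rows did in all. The SCI group (spinal cord injury) is 3 mice with a laminectomy at T10 and a moderate contusion there from a 10 g weight falling 20 mm, and the control group is 3 mice with the laminectomy alone. Both groups therefore share the laminectomy, and cord of about 1 cm around T10 was taken from all mice on day 2 after surgery. The sources used here name no strain, sex or age. Each of the 6 libraries is taken as 1 mouse, so that p-values measure the spread between animals together with that between their libraries.

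A miRNA hairpin is cut into a duplex of a 5p and a 3p strand, of which usually one is loaded into Argonaute and guides repression while its partner is degraded. Bases 2 to 8 of the loaded strand, the seed, choose the target mRNAs by pairing. The miR-30 family is widely expressed, its 5p arms are normally the loaded strands, and it has been described as repressing Becn1, an autophagy gene, and Dll4, a Notch ligand of sprouting vessels. In bulk tissue, fewer cells of a type and less of a miRNA per cell cannot be told apart.

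Mature sequences from RefSeq (GRCm38.p6) were matched for 5 of the 8 members, and they are shown 5′ to 3′ with the seed in capitals because the seed groups the arms. The lines for miR-30a-5p, miR-30e-5p and miR-30c-5p share one seed with miR-384-5p, the same-seed relative from a hairpin on chromosome X, and the pair of 3p arms shares another.
miR-30a-5p: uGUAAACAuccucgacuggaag
miR-30e-5p: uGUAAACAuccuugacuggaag
miR-30c-5p: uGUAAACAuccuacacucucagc
miR-384-5p: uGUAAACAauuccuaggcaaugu
miR-30a-3p: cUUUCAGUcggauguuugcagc
miR-30e-3p: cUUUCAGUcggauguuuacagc
Counting from 1 at the 5′ end, miR-30a-5p and miR-30e-5p differ by C13U and miR-30a-3p and miR-30e-3p by G18A, a single base on each arm. miR-30c-5p matches miR-30a-5p over its first 12 bases and miR-384-5p matches it over its first 8. No source used here says how the authors' counting treated reads that match near-identical miRNAs, so the split of reads between miR-30a and miR-30e is uncertain.

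The hairpins of miR-30a and miR-30e are shown with both arms in capitals, since the ratio of their arms differed between the groups.
Mir30a: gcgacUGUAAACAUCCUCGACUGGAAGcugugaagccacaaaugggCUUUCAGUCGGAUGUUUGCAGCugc
Mir30e: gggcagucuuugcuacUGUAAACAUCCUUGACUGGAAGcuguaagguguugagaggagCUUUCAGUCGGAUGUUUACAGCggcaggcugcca
Positions come from GENCODE M21, on GRCm38 (mm10). Mir30a lies at chr1:23272269-23272339 (plus strand, in no annotated host gene), 19361 bases before Mir30c-2. Mir30e lies at chr4:120772606-120772697 (minus strand), 2983 bases from Mir30c-1, and both are intronic in Nfyc, which encodes a subunit of the transcription factor NF-Y. Mir30b and Mir30d lie on chromosome 15, 3697 bases apart. The mature miR-30c-5p is the same from both of its hairpins, so its reads cannot be given to chromosome 1 or 4.

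The libraries held 7100472 to 8889977 reads in the SCI-labelled and 5568491 to 7360149 reads in the control-labelled group. Markers of injury and myeloid cells ran against the labels. All 6 (among them miR-21a-5p and miR-223-3p) passed the test as lower in SCI-labelled libraries. Together they took 1.12% to 1.39% of reads there, against 8.97% to 12.6% in control-labelled libraries. The red cell miRNAs miR-451a (log2 fold change -2.56), miR-144-3p (-2.65) and miR-486a-5p (-3.57) were all called lower too, and took 0.222% to 0.512% of reads in SCI-labelled and 1.04% to 3.05% in control-labelled libraries. The part of these cell types in the miR-30 values was not tested. The deposited columns of SCI-labelled samples also have names that begin with Normal. Groups are therefore called by their labels, and every direction is that of the labels as deposited. Markers of cord cells were present, with none at 0: those of neurons, of which 3 of 4 passed as higher in the SCI-labelled group while miR-124-3p had a log2 fold change of -0.52, took 11.3% to 14.0% of reads in SCI-labelled and 6.43% to 10.8% in control-labelled libraries, and those of oligodendrocytes 0.951% to 1.03% in SCI-labelled and 0.912% to 1.08% in control-labelled ones. Control-labelled library 3 stood apart: its skeletal muscle markers took 4.35% of reads, against 0.999% to 1.85% in SCI-labelled libraries and 0.783% and 1.18% in the other control-labelled ones.

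By the main test, miR-30a-5p was the one 5p arm called lower in the SCI-labelled group, by 1.99-fold. The log2 fold changes of miR-30b-5p, miR-30d-5p and miR-30e-5p were negative as well but did not pass. Of the 8 members, edgeR's quasi-likelihood test called 1 lower, miR-30a-5p, and 1 higher, miR-30e-3p, and 6 did not pass (Benjamini-Hochberg adjusted p under 0.05 over all 614 rows). Over all rows tested 39.4% were called, 23.1% lower and 16.3% higher, and the members' counts are not above those shares. The median log2 fold change was -0.06 over the members and -0.07 over all rows. It was -0.40 over the 5p members and 0.39 over the 3p members, in each case the value of a row that did not pass. The arms were not opposed throughout, since the 5p arm miR-30c-5p was at 0.46. The miR-30 3p rows outside the members, miR-30b-3p, miR-30c-1-3p and miR-30c-2-3p, were at -0.21, 0.07 and -0.07. Among the members 5 had libraries that did not overlap between groups, against 51.3% of all rows, and on the deposited TPM scale 4 of the 8 did not.

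miR-30a-5p, the most abundant member in both groups, was at 18836, 18527 and 16814 CPM (reads scaled by TMM to a common library size) in SCI-labelled libraries 1 to 3, against 35412, 37383 and 34784 CPM in control-labelled libraries 1 to 3. Each SCI-labelled library lay far below each control-labelled one, and the libraries of a group stayed close together. The means were 18059 ± 1090 and 35860 ± 1356 CPM (SD, n = 3 each), a log2 fold change of -0.99 (SE 0.16; edgeR adjusted p = 0.00167). The call held under all 16 alternatives, with adjusted p-values from 1.18e-06 to 0.0229.

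miR-30d-5p, made with miR-30b from chromosome 15, was at 17376, 17827 and 17678 CPM in SCI-labelled and at 23374, 26178 and 16976 CPM in control-labelled libraries. Control-labelled library 3 was the lowest of the 6 on this scale, so the groups overlapped. On the deposited TPM they did not, with SCI-labelled libraries at most at 17756 TPM and control-labelled library 3 at 19591 TPM. The log2 fold change was -0.33 (SE 0.20; edgeR adjusted p = 0.221), and without control-labelled library 3 it was -0.45 and passed the test (edgeR adjusted p = 0.0255). It was -0.23 without control-labelled library 1 (edgeR adjusted p = 0.481) and -0.20 without control-labelled library 2 (0.479). In SCI-labelled libraries miR-30a-5p and miR-30d-5p stood level, since their means differed by less than the SD of miR-30a-5p, whereas in control-labelled libraries miR-30a-5p was the higher in each.

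miR-30c-5p was at 7471, 6368 and 6289 CPM in SCI-labelled libraries and at 4374, 4740 and 5523 CPM in control-labelled ones. Its groups did not overlap on this scale, but on the deposited TPM they did, because control-labelled library 3 stood at 6374 TPM and SCI-labelled libraries 2 and 3 at 5787 and 6246 TPM. The log2 fold change of 0.46 (SE 0.18) did not pass the edgeR test (adjusted p = 0.0709). It passed under 3 of the 16 alternatives: without control-labelled library 3 (0.60; edgeR adjusted p = 0.0108), with the upper quartile (0.0438) and with DESeq2 (0.0363). The other 13 did not pass, with the highest adjusted p from limma on log2(TPM + 0.1) (limma adjusted p = 0.279).

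miR-30e-5p was at 2416, 1596 and 1894 CPM in SCI-labelled and at 2486, 2861 and 4723 CPM in control-labelled libraries. The gap between the groups was narrow and closed on the deposited TPM scale. The log2 fold change was -0.77 (SE 0.28; edgeR adjusted p = 0.0560). It passed under 3 of the 16 alternatives: without control-labelled library 1 (edgeR adjusted p = 0.0396), with no filter (0.00909) and with DESeq2 (0.0392). The other 13 did not pass, with the highest adjusted p without SCI-labelled library 2 (edgeR adjusted p = 0.213). The log2 fold change moved to -0.40 without control-labelled library 3.

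miR-30b-5p, the least abundant 5p arm, was at 811, 619 and 692 CPM in SCI-labelled and at 880, 672 and 1254 CPM in control-labelled libraries. The groups overlapped, and the log2 fold change was -0.40 (95% interval -0.98 to 0.18; edgeR adjusted p = 0.249). Without control-labelled library 3 it was -0.09.

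Library 3 of the control-labelled group set much of this spread. Relative to the mean of control-labelled libraries 1 and 2 it held 1.77 times as much miR-30e-5p, 1.62 times as much miR-30b-5p and 1.21 times as much miR-30c-5p, but 0.685 times as much miR-30d-5p and 0.956 times as much miR-30a-5p. The skeletal muscle miRNAs miR-1a-3p, miR-133a-3p and miR-206-3p stood 3.58, 10.5 and 7.78 times as high there. None of these 3 was past the group test. Some markers of other cells stood apart there as well, but those of a cell type did not move together. Of the neuron markers, miR-124-3p was 2.90 times as high as in control-labelled libraries 1 and 2. The others, miR-9-5p, miR-128-3p and miR-218-5p, were at 1.42, 0.801 and 1.00 times. Of the oligodendrocyte markers, miR-219a-5p was 4.53 times as high, with miR-219a-2-3p and miR-338-3p at 0.727 and 1.25 times. The red cell miRNAs miR-451a, miR-486a-5p and miR-144-3p were at 0.284, 0.386 and 0.915 times the level in control-labelled libraries 1 and 2. Of the endothelial markers, miR-126a-3p was at 0.479 and miR-126a-5p at 1.64 times that level. The part of all these markers in the miR-30 values was not tested.

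**Figure D1:**
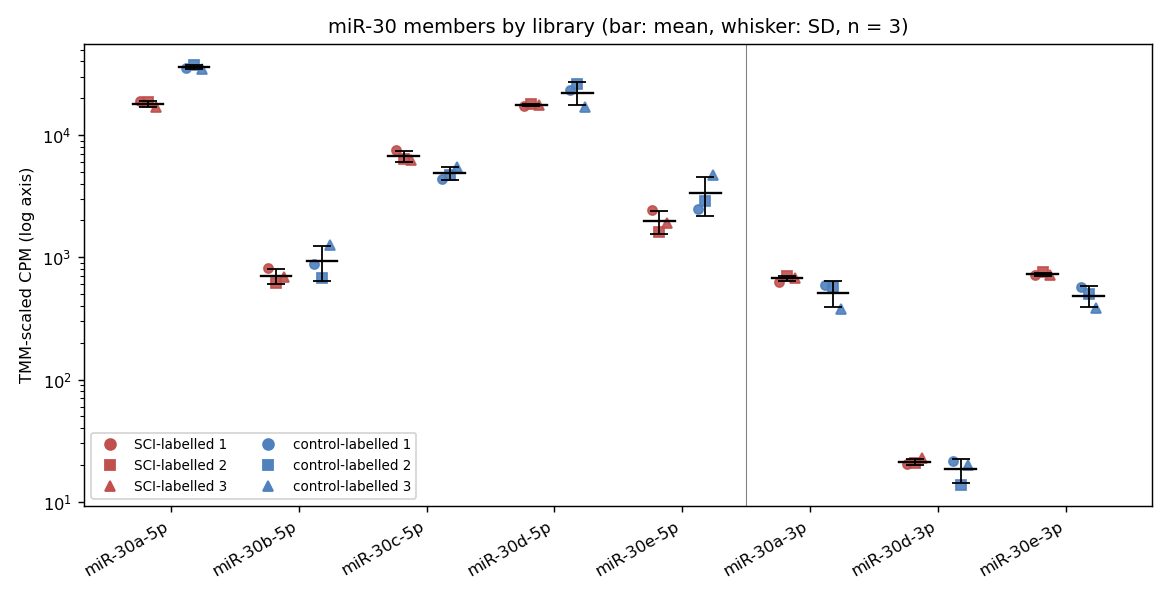
TMM-scaled CPM of the 8 members in each library, on a log axis. Red symbols are SCI-labelled and blue symbols control-labelled libraries, bars are means and whiskers SDs (n = 3 each). The blue points of miR-30a-5p all lie above the red ones, and control-labelled library 3 (blue triangles) is the highest point of miR-30e-5p and miR-30b-5p and the lowest of miR-30d-5p.

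The make-up of the 5p pool differed between the groups. miR-30a-5p held 40.2%, 41.2% and 38.8% of the summed miR-30 5p reads in SCI-labelled libraries, against 53.2%, 52.0% and 55.0% in control-labelled ones. miR-30c-5p held 15.9%, 14.2% and 14.5% in SCI-labelled libraries and 6.58%, 6.60% and 8.73% in control-labelled ones. These shares do not depend on the scaling of library size, and in both the groups did not overlap. miR-30d-5p also had a larger share in SCI-labelled libraries, at 39.2% ± 1.91, against 32.8% ± 5.21 in control-labelled ones (SD, n = 3 each). That difference of 6.35 percentage points was 3.37 without control-labelled library 3. The shares of miR-30e-5p (4.36% ± 0.799 in SCI-labelled and 5.06% ± 2.09 in control-labelled libraries) and miR-30b-5p (1.57% ± 0.178 in SCI-labelled and 1.41% ± 0.529 in control-labelled libraries) overlapped. The exact two-sided permutation p was 0.1 for the shares of miR-30a-5p, miR-30c-5p and miR-30d-5p, which is the smallest that 3 libraries against 3 can give, so no share could pass a threshold of 0.05.

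**Figure D2:**
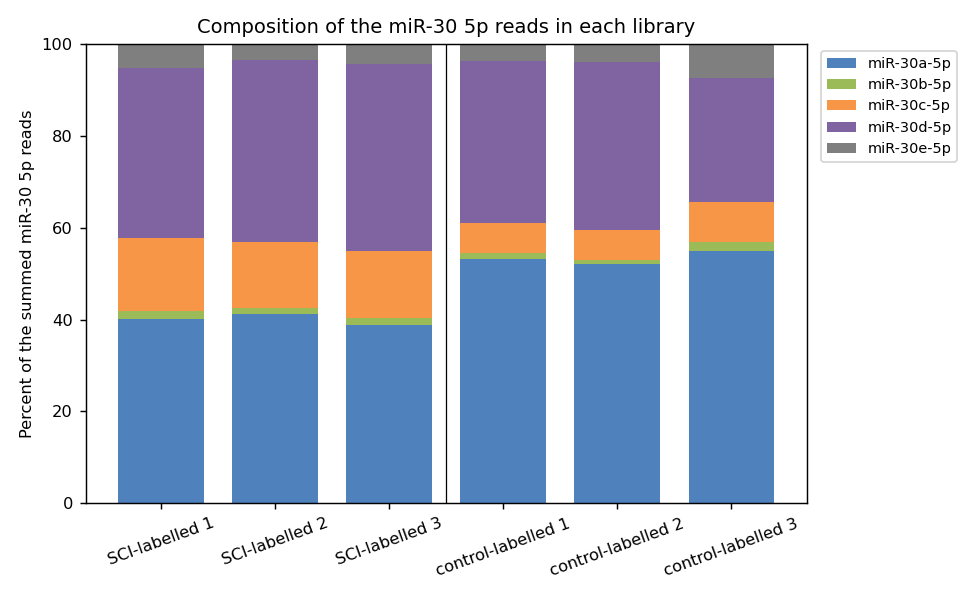
Stacked percentages of the summed miR-30 5p reads by member, with SCI-labelled libraries on the left and control-labelled ones on the right. The miR-30a-5p block spans 38.8% to 41.2% in SCI-labelled and 52.0% to 55.0% in control-labelled libraries, and the miR-30c-5p block is larger in SCI-labelled ones.

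The summed 5p reads were a smaller part of all reads in the SCI-labelled group. Not every member shared in this: miR-30a-5p was the sole 5p arm called lower, and miR-30c-5p had a positive log2 fold change in the SCI-labelled group. The 5 summed 5p arms took 4.39% ± 0.363 of all reads there and 6.91% ± 0.534 in the control-labelled group (SD, n = 3 each). The 3 summed 3p arms went the other way, at 0.138% ± 0.00377 in the SCI-labelled and 0.103% ± 0.0120 in the control-labelled group. In both sums every SCI-labelled library lay on 1 side of every control-labelled one (exact permutation p = 0.1, the smallest possible).

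Members that share a cluster were compared through the ratio of their reads in the same library. The ratio of miR-30a-5p to miR-30c-5p was 2.52, 2.91 and 2.67 in SCI-labelled libraries and 8.10, 7.89 and 6.30 in control-labelled ones, a separation with no overlap. The ratio of miR-30c-5p to miR-30e-5p, whose hairpin neighbours Mir30c-1 in Nfyc, was 3.09, 3.99 and 3.32 in SCI-labelled and 1.76, 1.66 and 1.17 in control-labelled libraries. The ratio of miR-30b-5p to miR-30d-5p was 0.0467, 0.0347 and 0.0391 in SCI-labelled libraries and 0.0376, 0.0257 and 0.0738 in control-labelled ones, and there the groups overlapped. Of all 10 pairs of 5p arms, 5 had ratios that did not overlap between groups. These pairs are not independent: all but that of miR-30a-5p with miR-30d-5p include miR-30c-5p. Among single rows 51.3% did not overlap, and the share over pairs of other rows was not tested. With exact permutation tests the smallest p was 0.1, or 0.2 after adjustment over the 10 pairs.

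Of the 3p arms, miR-30e-3p passed the test. It was at 723, 751 and 713 CPM in SCI-labelled and at 567, 506 and 382 CPM in control-labelled libraries, without overlap. The log2 fold change was 0.59 (SE 0.20; edgeR adjusted p = 0.0484), close to the threshold. That call was lost under 10 of the 16 alternatives, among them leaving out SCI-labelled library 1 (edgeR adjusted p = 0.107), 2 (0.129) or 3 (0.106) or control-labelled library 2 (0.0865), RLE scaling (0.0501) and the library total (0.0615). Adjusted p-values over all alternatives ran from 0.0142 to 0.129.

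miR-30a-3p was at 633, 703 and 678 CPM in SCI-labelled and at 598, 568 and 375 CPM in control-labelled libraries. All SCI-labelled values were the higher, but the log2 fold change of 0.39 (95% interval -0.12 to 0.89) did not pass the test (edgeR adjusted p = 0.208). Without control-labelled library 3 it was 0.24. miR-30d-3p, the rarest member, had 166, 134 and 200 reads in SCI-labelled libraries and 134, 76 and 170 reads in control-labelled ones. Its log2 fold change was 0.21 (95% interval -0.32 to 0.74; edgeR adjusted p = 0.502). It was 0.40 without control-labelled library 1 and 0.03 without control-labelled library 2.

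**Figure D3:**
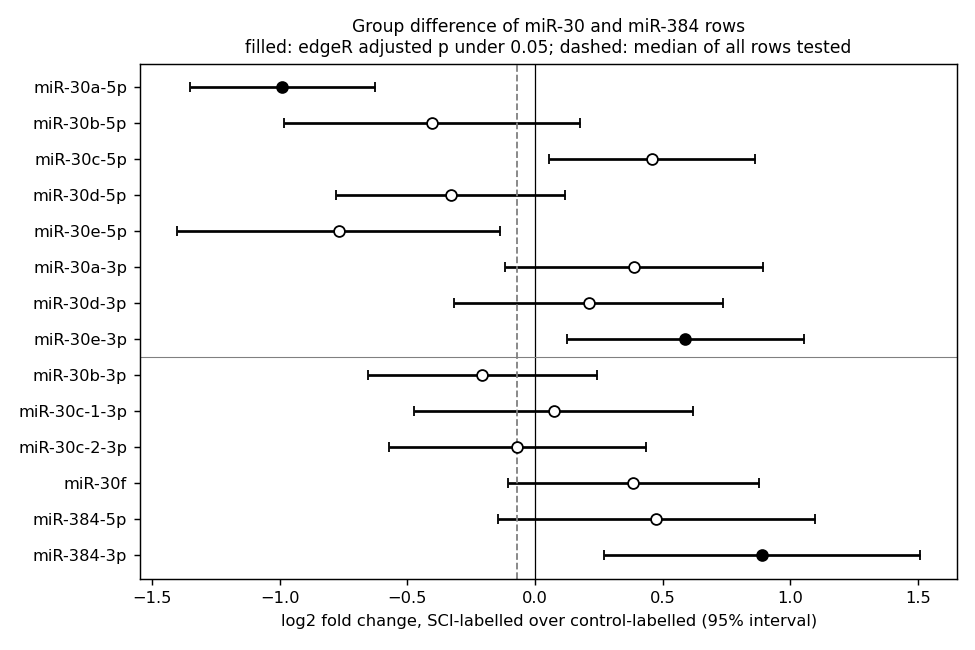
Log2 fold change, SCI-labelled over control-labelled, of the 8 members (above the line) and of 6 other rows of the miR-30 and miR-384 hairpins (below it). Whiskers are 95% intervals from the edgeR fit, filled symbols passed the test, and the dashed line is the median of all rows tested. miR-30a-5p lies at -0.99, while the 3p members lie at 0.21 to 0.59.

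The arm ratio of the miR-30a and miR-30e hairpins therefore differed between the groups. For miR-30a there were 29.7, 26.3 and 24.8 reads of the 5p arm per read of the 3p arm in SCI-labelled libraries, against 59.3, 65.8 and 92.7 in control-labelled ones. The groups were far apart, and control-labelled library 3 was the highest. The mean log2 ratio was 4.75 ± 0.13 in the SCI-labelled and 6.15 ± 0.34 in the control-labelled group (SD, n = 3 each), a 2.65-fold lower ratio in the SCI-labelled group. In edgeR's diffSpliceDGE, which compares each arm with its hairpin in 1 fit over all hairpins, the miR-30a-3p arm had an adjusted p of 0.000568. An arm was called in 18.4% of the 179 hairpins tested, and 8.94% had both a called arm and a lower 5p-to-3p ratio in the SCI-labelled group.

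For miR-30e the ratio was 3.34, 2.13 and 2.66 in SCI-labelled libraries and 4.39, 5.66 and 12.4 in control-labelled ones. These did not overlap either, although control-labelled library 3 stood well above the others. The mean log2 ratio was 1.41 ± 0.33 in the SCI-labelled and 2.75 ± 0.78 in the control-labelled group (SD, n = 3 each; diffSpliceDGE adjusted p = 0.0183 for the 3p arm). It no longer passed when SCI-labelled library 2 (edgeR adjusted p = 0.121) or 3 (0.114) was left out. Without control-labelled library 3 the 5p minus 3p log2 difference moved to -0.88, against -1.36 with all libraries, and stayed past the test (0.0294).

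With miR-30a and miR-30e summed on each arm, so that the split of reads between them plays no part, the ratio was 15.7, 13.8 and 13.4 in SCI-labelled libraries and 32.5, 37.5 and 52.2 in control-labelled ones. The groups stayed apart (exact permutation p = 0.1, the smallest possible).

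miR-30d was the most one-sided hairpin, with 845, 858 and 780 reads of the 5p arm per 3p read in SCI-labelled libraries and 1090, 1903 and 848 in control-labelled ones. The groups overlapped, and the diffSpliceDGE adjusted p was 0.444. Without control-labelled library 3 it was 0.0316 (edgeR). For miR-30b, whose 3p arm is among the other rows of the family, the ratio was 21.6, 16.8 and 16.9 in SCI-labelled libraries, and 18.8, 13.7 and 33.7 in control-labelled ones, again with overlap.

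**Figure D4:**
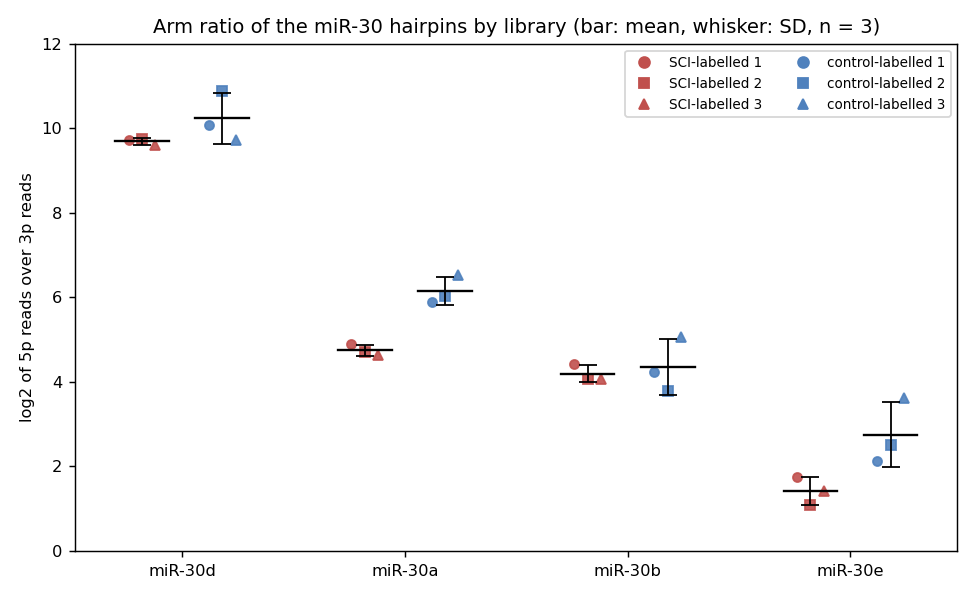
Log2 of 5p reads over 3p reads for 4 miR-30 hairpins in each library, red for SCI-labelled and blue for control-labelled, with means (bars) and SDs (whiskers, n = 3 each). The red and blue points are apart for miR-30a (means of 4.75 for SCI-labelled and 6.15 for control-labelled) and miR-30e (1.41 for SCI-labelled and 2.75 for control-labelled) and overlap for miR-30d and miR-30b.

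The order of levels was as follows. In control-labelled libraries the mean levels ran from miR-30a-5p through miR-30d-5p (22176 ± 4716 CPM), miR-30c-5p (4879 ± 587 CPM), miR-30e-5p (3357 ± 1198 CPM) and miR-30b-5p (935 ± 295 CPM) down to miR-30a-3p (514 ± 121 CPM), miR-30e-3p (485 ± 94.3 CPM) and miR-30d-3p (18.4 ± 4.09 CPM; SD, n = 3 each). In SCI-labelled libraries miR-30e-3p (729 ± 19.9 CPM), miR-30b-5p (707 ± 97.0 CPM) and miR-30a-3p (672 ± 35.4 CPM) were within the spread of miR-30b-5p of each other. miR-30c-5p and miR-30e-5p were well separated there, while their ranges overlapped across control-labelled libraries. Within each control-labelled library miR-30c-5p was still the higher, at 1.76, 1.66 and 1.17 reads per read of miR-30e-5p. Reads were counted per miRNA, so levels carry no length term. Whether different miRNAs or arms are sequenced with equal efficiency was not tested, and these orders and arm ratios are those of reads.

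Of the 6 other rows of these hairpins, edgeR called 1 higher in the SCI-labelled group and 5 did not pass. Over all rows tested 16.3% were called higher, so this count does not set these rows apart. The called row was miR-384-3p, the other arm of the same-seed relative, at 514, 314 and 324 CPM in SCI-labelled and at 204, 162 and 256 CPM in control-labelled libraries. The groups did not overlap, and the row was 1.85-fold higher (log2 0.89, SE 0.27; edgeR adjusted p = 0.0319). That call was lost under 8 of the 16 alternatives. Leaving out SCI-labelled library 1 (edgeR adjusted p = 0.131) or 3 (0.0597) or control-labelled library 1 (0.0508) or 2 (0.102) ended it, as did the library total (0.0814). So did limma on log2(TPM + 1) (limma adjusted p = 0.0809), log2(TPM + 0.1) (0.106) and log2(TPM + 10) (0.106).

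miR-384-5p, which carries the miR-30 seed, was at 260, 204 and 185 CPM in SCI-labelled and at 123, 129 and 215 CPM in control-labelled libraries. Control-labelled library 3 lay inside the SCI-labelled range, and the log2 fold change was 0.48 (SE 0.27; edgeR adjusted p = 0.209). Without that library it was 0.83 and passed (edgeR adjusted p = 0.00599), as it did under no other of the 16 alternatives. Its sign was that of miR-30c-5p and opposite to that of miR-30a-5p, although all of them share the seed. miR-30b-3p (log2 -0.21), miR-30c-1-3p (0.07) and miR-30c-2-3p (-0.07) did not pass, and the signs of the miR-30c 3p rows changed with the scaling.

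miR-30f comes from the strand opposite miR-30e, and its mature sequence overlaps that of miR-30e-3p by 19 of 22 bases, shown in capitals because reads of one, turned round, resemble the other.
miR-30f: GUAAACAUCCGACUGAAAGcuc
miR-30e-3p: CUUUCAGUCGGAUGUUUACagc
miR-30f had 0.463, 0.468 and 0.483 reads per read of miR-30e-3p in SCI-labelled libraries and 0.567, 0.518 and 0.538 in control-labelled ones. The rows moved nearly together while miR-30e-3p ran from 2793 to 6292 reads, although the ratio did not overlap between the groups. No source used here says whether the authors' counting used strand, so it is unknown whether reads of one were counted in the other. miR-30a-3p and miR-30e-3p were also close, at 0.876, 0.936 and 0.952 reads of miR-30a-3p per read of miR-30e-3p in SCI-labelled libraries and 1.05, 1.12 and 0.982 in control-labelled ones. That ratio did not overlap between the groups either. On the 5p arm the corresponding ratio was 7.80, 11.6 and 8.88 in SCI-labelled libraries and 14.2, 13.1 and 7.36 in control-labelled ones. There the groups overlapped.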

How the data were processed

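The authors deposited whole-number read counts per miRNA, without normalization, and a TPM column per library that equals CPM from the column total (largest difference 2.74e-05), per the file headers and the values. The submitters' processing notes name Bowtie and mm10 only. No source used here gives the miRBase release or the mismatch, multi-mapping and strand settings. Columns were assigned to samples by the names in their descriptions.

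The analysis used edgeR 4.0.16 in R 4.3.3: filterByExpr with a minimum count of 10, TMM, the robust quasi-likelihood F test on group alone, and Benjamini-Hochberg adjustment over 614 rows at 0.05. Standard errors were taken from F. Arms were tested with diffSpliceDGE at the arm level, adjusted over all arms of 179 hairpins. Ratios and shares used exact two-sided permutation tests (scipy 1.17.1). Alternatives used DESeq2 1.42.0 and limma 3.58.1. All pairs of libraries within a group differed by more than sampling noise. The members and lists were chosen with earlier results of these data known. Rows named are the 8 members, 6 other miR-30 and miR-384 rows, marker miRNAs, and the 5 rows most like the 5p sum. On data simulated for this comparison (614 rows, 608 kept), 62.6% of 2-fold and 96.0% of 4-fold changes were recovered. For arm usage (174 hairpins) 76.7% of 30 hairpins given a 4-fold shift of the arm ratio were recovered. Smaller arm shifts were not simulated.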

Additional observations from a re-analysis of the deposited data

How the results depend on the processing

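With 3 libraries a group and a variation between libraries of 26.7%, 2-fold changes can be missed, as 62.6% of simulated ones were recovered. Permutation tests cannot go below p = 0.1 (0.2 with 1 library left out). The number of members called higher (1) was 0 with RLE, the library total, no filter, limma on log2(TPM + 1) or log2(TPM + 0.1), and the replicate block, and 2 with the upper quartile and DESeq2. The number called lower (1) was 2 with no filter and with DESeq2. Leaving out each library gave 0 to 2 higher and 1 to 2 lower, and 5p minus 3p log2 differences of -1.65 to -0.88 for miR-30e, -0.76 to -0.24 for miR-30d and -0.47 to 0.19 for miR-30b. Without the 10 most abundant rows in the denominator, the group difference of the 5p sum was -4.00 percentage points (-2.51 with the total) and that of the 3p sum 0.102 (0.0351). Signs of these uncalled values changed: miR-30c-1-3p stood at -0.026 with the library total and -0.0023 with limma on log2(TPM + 10), miR-30c-2-3p at 0.034 with the upper quartile, 0.010 without SCI-labelled library 1 and -0.15 to 0.10 over all such omissions, and the arm difference of miR-30b at 0.19 without control-labelled library 3. So did those of the group differences in the share of miR-30e-5p (0.50 percentage points without control-labelled library 3, against -0.71) and of miR-30b-5p (-0.09 without control-labelled library 2, against 0.15), and in the log2 ratio of miR-30b-5p to miR-30d-5p (0.36 without control-labelled library 3 and 0.04 without SCI-labelled library 2, against -0.06). The cause was not tested. The upper quartile moved the median of all rows to 0.04. Replicate numbers of the sample titles showed no pairing of the libraries. Same-numbered deviations correlated at -0.27, 0.19 and -0.18, and 1 of 3 SCI-labelled libraries correlated best with its own number. The numbers in the control-labelled column names differ from those of the titles, and pairing by column number was not tested. With the replicate block, 78 rows were called higher and 112 lower, against 100 and 142, and miR-30a-5p (edgeR adjusted p = 0.00395) and both arm calls, of miR-30a (0.00783) and miR-30e (0.0447), kept their side of the threshold.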

Other observations

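The rows outside the family whose profile over the 6 libraries was nearest that of the summed miR-30 5p reads were miR-150-5p, a lymphocyte miRNA, miR-26b-5p, miR-27b-3p, miR-423-3p and miR-22-3p. Likeness was the root mean square difference of centred log2 CPM, over the 216 rows at 100 CPM or more, and it was 0.08 for miR-150-5p and 0.13 for miR-22-3p, the nearest and the farthest of the 5. miR-26b-5p was at 1631 CPM on average in the SCI-labelled and 2505 CPM in the control-labelled group, and miR-27b-3p at 13984 CPM in the SCI-labelled and 20391 CPM in the control-labelled group. Log2 fold changes of the 5 ran from -0.63 to -0.54, with edgeR adjusted p-values of 0.0194 to 0.0383. A choice by likeness to a falling sum fixes this direction.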
